A study of Mus musculus with 6 samples.

Results

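Genes that mark or control the epithelial and mesenchymal states were measured in 3 CT26 lines, a mouse colon carcinoma of the BALBc strain. The 10 genes were matched by symbol among the 53801 genes of the deposited tables: the epithelial markers Cdh1, Epcam and Krt8, the mesenchymal markers Cdh2 and Vim, and the regulators Zeb1, Zeb2, Snai1, Snai2 and Twist1. The lines were the parental line, which was bulk barcoded and puromycin-selected CT26 recovered from engrafted tumours, and the lines B04 and B64, each grown from a single cell and each resistant to immune checkpoint blockade (ICB). Each line had 2 libraries, A and B. The sample labels call them tumours, with no treatment, whereas the study's methods describe lines cultured in complete RPMI-1640. Per the study, the clones were isolated following ICB treatment, which enriched their barcodes. B04 and B64 are each 1 clone, so a difference between lines can be a difference between clones, and p-values measure the spread between duplicates of a line, which may be technical.

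Epithelial cells are held together by junctions built on E-cadherin (Cdh1) and carry the adhesion protein Epcam and paired keratins such as Krt8 and Krt18. In the epithelial-mesenchymal transition, transcription factors of the ZEB, SNAIL and TWIST families lower these genes, and cells gain N-cadherin (Cdh2) and the intermediate filament vimentin (Vim). ZEB and SNAIL proteins bind E-boxes, short DNA words of the form CANNTG, most readily CAGGTG or its complement CACCTG. Carcinomas of the colon can hold cells in either state or between them.

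The promoters of 2 epithelial genes under 1 TPM and of Vim, the most abundant of the 10 genes, show where such words lie. The windows are from RefSeq on GRCm38.p6, run 5′ to 3′ from 250 bases before the RefSeq start to 50 bases after it, and carry every CANNTG in capitals. For Vim and Krt8 this start differs from that of the gene coordinates given below, which are from GENCODE. Distances here are from the RefSeq start. RefSeq windows were matched for 6 of the 10 genes. Epcam lies at chr17:87635729-87636028 on the plus strand, Krt8 at chr15:102004293-102004592 on the minus strand and Vim at chr2:13574061-13574360 on the plus strand.
Epcam: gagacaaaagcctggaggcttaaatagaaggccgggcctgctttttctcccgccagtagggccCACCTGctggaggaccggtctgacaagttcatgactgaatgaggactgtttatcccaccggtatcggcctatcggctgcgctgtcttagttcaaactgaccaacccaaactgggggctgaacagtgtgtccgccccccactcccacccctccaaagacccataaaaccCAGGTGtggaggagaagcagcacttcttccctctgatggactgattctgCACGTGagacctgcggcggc
Krt8: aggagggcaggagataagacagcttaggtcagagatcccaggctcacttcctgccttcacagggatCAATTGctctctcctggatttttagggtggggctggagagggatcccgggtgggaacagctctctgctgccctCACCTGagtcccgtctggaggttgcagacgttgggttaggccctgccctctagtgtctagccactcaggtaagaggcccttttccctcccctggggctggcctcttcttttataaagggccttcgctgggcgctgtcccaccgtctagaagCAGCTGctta
Vim: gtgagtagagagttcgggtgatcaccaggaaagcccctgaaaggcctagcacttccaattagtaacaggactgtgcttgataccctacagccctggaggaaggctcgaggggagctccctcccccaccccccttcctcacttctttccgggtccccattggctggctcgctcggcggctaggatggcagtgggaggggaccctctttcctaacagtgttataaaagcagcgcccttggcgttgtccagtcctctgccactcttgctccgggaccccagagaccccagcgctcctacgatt
The Epcam window held 3 E-boxes, a CACCTG starting 187 bases before the gene start, a CAGGTG starting 19 bases before it and a CACGTG whose first base is base 31 of the transcript. The Krt8 window held a CAATTG 184 bases before the start, a CACCTG 111 bases before it and a CAGCTG from base 41 of the transcript. The Vim window held none, and neither did the windows of Zeb2 and Twist1, while the Snai1 window had a CACCTG 126 bases before the start. Krt18, an epithelial keratin that was expressed in all lines, had a CACCTG 214 bases before its start. Of all 32851 windows of 300 bases, 6640 (20.2%) held CAGGTG or CACCTG and 72.3% held some CANNTG, both strands being covered since each word set is its own complement. Such a match is a description of these letters and not of binding.

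Library totals ranged from 19409204 to 23472012 expected counts, and 10970 to 11208 genes per library reached 1 TPM, the transcript level scaled by length and library total. None of 6 leukocyte or 4 endothelial markers reached 1 TPM in any library, and the lists summed to 0.25 to 0.96 TPM and to 0.1 TPM or less. Fibroblast markers, which mesenchymal tumour cells can share, summed to 338 to 367 TPM in every line, nearly all of it Col1a2, a collagen chain. In that list 4 of 8 genes reached 1 TPM in some library, and Lum was listed at 0 in every library. Intestinal epithelium markers had sums of 25.3 and 25.9 TPM in B64 and of 9.76 to 10.9 TPM elsewhere, almost wholly through Krt20, with Cdx1, Vil1 and Lgr5 at 0. Cdx2, an intestinal identity factor, was at 0.87 and 0.56 TPM in the parental line and listed at 0 in both clones. This difference did not pass the test in B04 (adjusted p = 0.304 by DESeq2) or in B64 (adjusted p = 0.375), with an SE of 4.79 on the log2 scale in each. By edgeR 1 of the 3 genes tested in this intestinal list was called lower in B04, and 1 lower and 1 higher in B64. Of the 8 intestinal markers, 2 reached 1 TPM in some library, which were Krt20 and Lgals4, the latter at 0.57 to 1.31 TPM. Fragments also varied in length. Gene length exceeded effective length, the length left for placing a fragment, by 271.8 to 277.3 bases in B04 A and both parental libraries (long fragments) and by 220.8 to 246.2 bases in B04 B and both B64 libraries (short fragments). B64 and the parental line shared no fragment class, so that the effects of line and of fragment length cannot be told apart in their direct comparison, other than through B04.

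**Figure D1:**
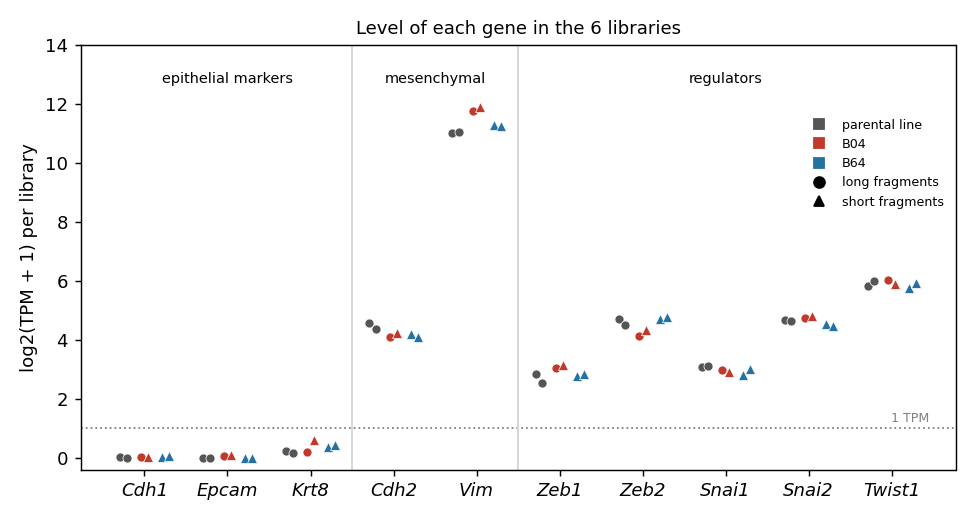
Level of each of the 10 genes in the 6 libraries, as log2(TPM + 1), with colour for the line and shape for the fragment-length class; the dotted line marks 1 TPM. The 3 epithelial markers lie under the line in all 6 libraries and the other 7 genes lie above it.

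Of the 10 genes, 7 were expressed in all 3 lines, defined as at least 1 TPM in both libraries of a line, and 3 were not expressed, with under 1 TPM in all 6 libraries. The 3 that were not expressed were the epithelial markers. The 7 expressed genes were both mesenchymal markers and all 5 regulators. With a limit of 0.5 TPM the number of expressed genes was again 7, and with a limit of 5 TPM it was 6, since Zeb1 was at 4.75 TPM in parental B.

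Cdh1 (ENSMUSG00000000303, chr8:106603351-106670246, plus strand), the adhesion receptor of epithelial junctions, had 1 and 0 expected counts in the parental line, 2 and 1 in B04 and 1 and 2 in B64. Epcam (ENSMUSG00000045394, chr17:87635979-87651129, plus strand), an epithelial cell surface protein, had 0 counts in both parental and both B64 libraries and 2 counts in each B04 library. Both genes stayed at or under 3 counts in every library, so no fold is given and neither entered the adjusted test. A level of 3 counts corresponds to at most 0.0604 TPM for Cdh1 and 0.099 TPM for Epcam in these libraries, which covers counting error only, as PCR copies are not independent molecules.

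Krt8 (ENSMUSG00000049382, chr15:101996698-102004482, minus strand), a keratin of simple epithelia, had 6 and 4 expected counts in the parental line, 5 and 16 in B04 and 8 and 11 in B64. In normalized counts, which are counts divided by each library's size factor, these were 5.7 and 3.7, 4.6 and 16.3, and 9.1 and 11.6. B04 A lay among the parental libraries, B04 B was the highest of the 6, and both B64 libraries were above both parental ones. The log2 fold change was 1.13 (SE 1.06, adjusted p = 0.527) in B04 and 1.13 (SE 1.07, adjusted p = 0.584) in B64, and its 95% interval in B04 ran from -0.95 to 3.22, so a difference was not detectable at this depth. Without B04 B the B04 value was -0.05. Keratin genes have pseudogenes among which RSEM may divide reads, so these low counts are uncertain.

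Vim (ENSMUSG00000026728, chr2:13573927-13582826, plus strand), the main intermediate filament protein of mesenchymal cells, was the most abundant of the 10 genes in every library. Its normalized counts were 50866.5 and 53799.6 in the parental line, 81341.2 and 75475.5 in B04 and 48892.3 and 51527.9 in B64. Both B04 libraries lay above the other 4, and the B64 and parental libraries overlapped. By TPM, Vim ranked 84 and 85 among all genes in the parental line, 46 and 32 in B04 and 67 and 69 in B64.

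**Figure D2:**
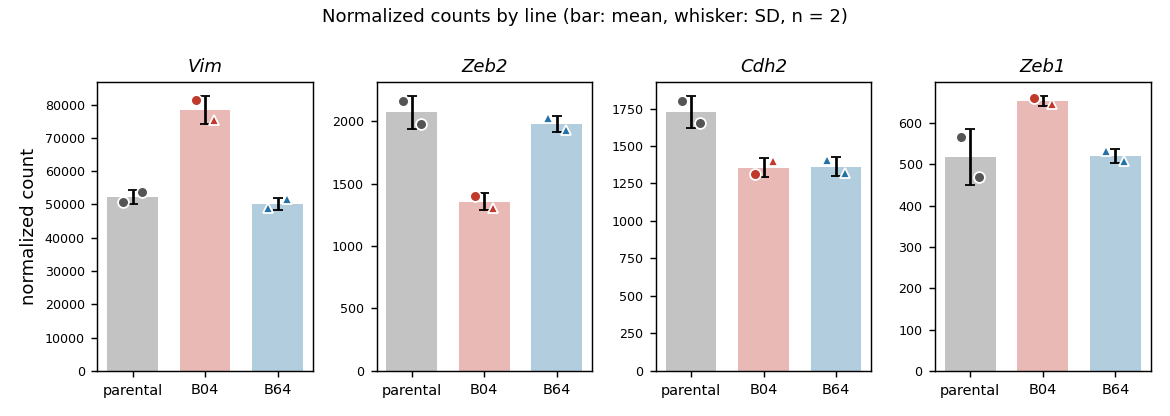
Normalized counts of Vim, Zeb2, Cdh2 and Zeb1 by line, with bars for the mean, whiskers for the SD (n = 2) and points for libraries shaped by fragment-length class as in the plot of levels; axes start at 0. B04 stands above the other lines for Vim and below them for Zeb2, while Cdh2 is highest in the parental libraries.

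In B04, Vim rose 1.50-fold over the parental line, from 52333 ± 2074 to 78408.4 ± 4147.6 normalized counts (SD, n = 2). The log2 fold change was 0.58 (SE 0.05, 95% interval 0.48 to 0.69, adjusted p = 4.33e-24 by DESeq2). In bulk RNA, more cells that express a gene and more RNA per cell cannot be told apart. Against B04, Vim fell by 0.64 on the log2 scale in B64 (SE 0.06, adjusted p = 1.94e-29). Between B64 and the parental line the log2 fold change of Vim was -0.06 (95% interval -0.17 to 0.05, adjusted p = 0.567), a difference that did not pass the test. Within long-fragment libraries, B04 A was 0.64 above the parental mean on the log2 scale, and within short-fragment libraries B64 was 0.59 below B04 B. Each of these values rests on a single B04 library, and the part of fragment length in the Vim difference was not tested.

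The level of Vim per length gives another order for B64. Vim was at 2041.67 and 2102.54 TPM in the parental line, 3420.76 and 3798.74 TPM in B04 and 2452.07 and 2419.26 TPM in B64, so that B64 lay above the parental line by TPM and overlapped it by counts. RSEM put the mean transcript length of Vim at 1525 bases in B04 A and at 1563 and 1541 bases in the parental line, against 1301, 1277 and 1351 bases in the short-fragment libraries B04 B, B64 A and B64 B. The part of this length estimate in the TPM order was not tested.

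Cdh2 (ENSMUSG00000024304, chr18:16588877-16809246, minus strand), the cadherin that mesenchymal cells use in place of E-cadherin, had 1802.0 and 1652.6 normalized counts in the parental line, 1311.5 and 1399.6 in B04 and 1405.6 and 1317.3 in B64. All 4 libraries of the clones were below both parental libraries, and the clones overlapped each other. Cdh2 fell by 0.35 on the log2 scale in B04 (SE 0.09, 95% interval -0.53 to -0.17, adjusted p = 0.00124) and by 0.34 in B64 (SE 0.09, adjusted p = 0.00248), by DESeq2. These comparisons share the parental libraries. Between the clones the difference was 0.01 (95% interval -0.18 to 0.19, adjusted p = 0.977). The calls depended on single libraries: without parental A the adjusted p was 0.103 in B04 and 0.17 in B64, without B04 A it was 0.0833 in B04, and without B64 B it was 0.153 in B64. A block for fragment class gave -0.44 in B64, with an adjusted p of 0.331.

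The ZEB factors, 2 related zinc-finger repressors of epithelial genes, took different values in B04. Zeb2 (ENSMUSG00000026872, chr2:44983632-45117395, minus strand) had 2163.6 and 1978.1 normalized counts in the parental line, 1403.6 and 1308.0 in B04 and 2024.1 and 1931.3 in B64. Both B04 libraries were below the other 4, with B64 and the parental line overlapping.

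Zeb2 fell to 0.655 of the parental level in B04, from 2070.8 ± 131.2 to 1355.8 ± 67.7 normalized counts (SD, n = 2). Its log2 fold change was -0.61 (SE 0.09, 95% interval -0.78 to -0.44, adjusted p = 1.06e-10 by DESeq2). It was 1.46-fold higher in B64 than in B04 (log2 fold change 0.54, SE 0.09, adjusted p = 1.38e-08). Between B64 and the parental line the difference was -0.07 (95% interval -0.24 to 0.10, adjusted p = 0.721). With limma on log2(TPM + 1) the B04 difference was -0.37 and did not pass (adjusted p = 0.121). Zeb2os, a gene antisense to Zeb2, had 62.0 to 95.7 counts, at most 5.84% of the Zeb2 count in any library, and the labelled library protocol names no step that marks strand, so reads of the pair may not be separable.

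Zeb1 (ENSMUSG00000024238, chr18:5591860-5775467, plus strand) had 565.7 and 470.4 normalized counts in the parental line, 662.1 and 645.3 in B04 and 532.3 and 507.8 in B64. Both B04 libraries were above the other 4. The log2 difference from the parental line was 0.34 (SE 0.14, 95% interval 0.07 to 0.60), and its adjusted p of 0.0568 did not pass in DESeq2, whereas edgeR's quasi-likelihood test gave 0.34 with an adjusted p of 0.0139. DESeq2 on genes with at least 10 counts in at least 2 libraries gave an adjusted p of 0.0346. The difference between B64 and B04 was -0.33 (adjusted p = 0.0646 by DESeq2, 0.0432 with that filter and 0.0166 by edgeR). Between B64 and the parental line it was 0.01 (adjusted p = 0.991 by DESeq2).

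Because Zeb1 and Zeb2 stood on opposite sides in B04, the ratio of their levels also differed there. Zeb1 was at 0.249 and 0.219 of the Zeb2 TPM in the parental line, 0.435 and 0.414 in B04 and 0.235 and 0.238 in B64. The number of Vim counts per Zeb2 count was 23.5 and 27.2 in the parental line, 57.9 and 57.7 in B04 and 24.2 and 26.7 in B64. These ratios restate the counts above within each library and were not tested.

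The SNAIL factors, zinc-finger repressors that bind E-boxes of Cdh1, did not pass the DESeq2 test in any comparison. Snai1 (ENSMUSG00000042821, chr2:167538195-167542814, plus strand) had 192.7 and 205.8 normalized counts in the parental line, 176.0 and 165.9 in B04 and 156.3 and 187.1 in B64. All 4 libraries of the clones were below the parental ones, with log2 differences of -0.22 in B04 (SE 0.22, adjusted p = 0.564) and -0.21 in B64 (SE 0.22, adjusted p = 0.632), each about the size of its standard error.

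Snai2 (ENSMUSG00000022676, chr16:14705852-14709385, plus strand) had 835.7 and 849.2 normalized counts in the parental line, 844.6 and 891.7 in B04 and 752.1 and 726.5 in B64. Both B64 libraries were the lowest of the 6. The log2 difference of B64 was -0.19 from the parental line (adjusted p = 0.284) and -0.23 from B04 (adjusted p = 0.121 by DESeq2), where edgeR gave -0.24 with an adjusted p of 0.0252. In B04 it was 0.04 (adjusted p = 0.858).

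Twist1 (ENSMUSG00000035799, chr12:33957671-33959829, plus strand), a basic helix-loop-helix factor of mesoderm, had 1443.3 and 1719.0 normalized counts in the parental line, 1649.0 and 1515.6 in B04 and 1410.2 and 1584.4 in B64. The libraries of the 3 lines overlapped. Its log2 difference was 0.00 in B04 (SE 0.10, adjusted p = 0.996), -0.08 in B64 (SE 0.10, adjusted p = 0.729) and -0.08 between the clones (adjusted p = 0.678).

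**Figure D3:**
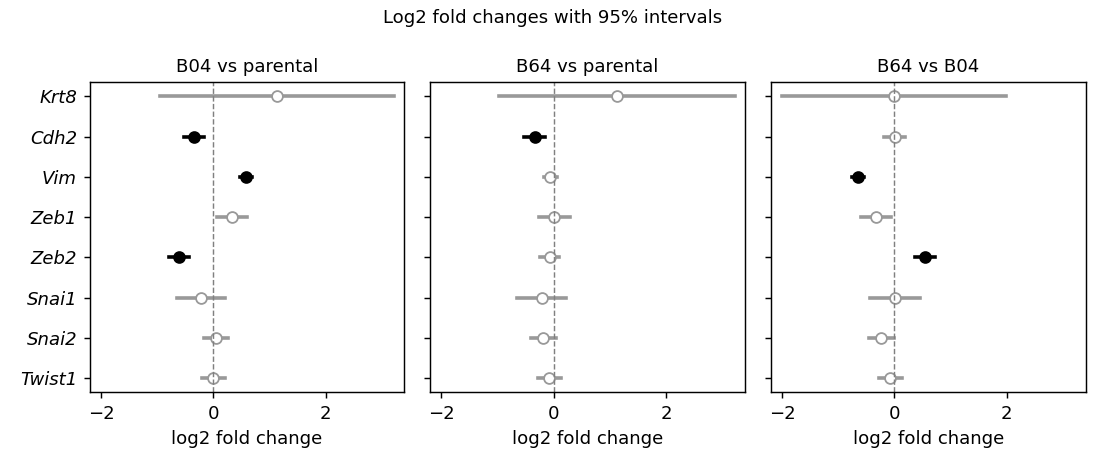
Log2 fold changes of the 8 tested genes with 95% intervals in the 3 comparisons, from the DESeq2 fit; filled black points passed an adjusted p under 0.05 and open grey points did not. The filled points are Vim, Zeb2 and Cdh2 in B04, Cdh2 in B64, and Vim and Zeb2 between the clones, and the Krt8 intervals are the widest.

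Of the 8 genes tested, 3 passed in B04 against the parental line, with 1 higher and 2 lower. Over all 13218 genes tested there, 24.1% passed, 11.2% higher and 12.9% lower. In B64 1 of the 8 passed, lower, against 16.3% of all genes tested, of which 8.87% were higher and 7.45% lower. Between the clones 2 of the 8 passed, 1 in each direction, against 24.3% of all genes tested, with 13.1% higher and 11.1% lower in B64. With a block for fragment class, 3 of 8, 0 of 8 and 2 of 7 tested passed, since Krt8 had no adjusted p between the clones, where 12.8%, 2.64% and 13.4% of all genes tested did. The count of 0 in B64 was 1 at an unadjusted p under 0.05. On 8 genes, no such count sets the group apart from the background. The median absolute log2 fold change over all genes tested was 0.22, 0.18 and 0.21 in the same order.

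By TPM, which is scaled by length, the order of the 7 expressed genes was partly the same in each line. Vim came first and Twist1 second, at 53.1 to 64.1 TPM, with no library of another member in between. Snai2, Zeb2 and Cdh2 followed at 16.0 to 26.9 TPM. In the parental line Zeb2 overlapped each of the others, with both Snai2 libraries above both Cdh2 libraries. In B04 Snai2 was above both others, and in B64 the order was Zeb2, Snai2 and Cdh2 without overlap. Snai1 and Zeb1 came last at 4.75 to 7.87 TPM, with Snai1 above Zeb1 in the parental libraries, below it in B04 and overlapping it in B64.

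**Figure D4:**
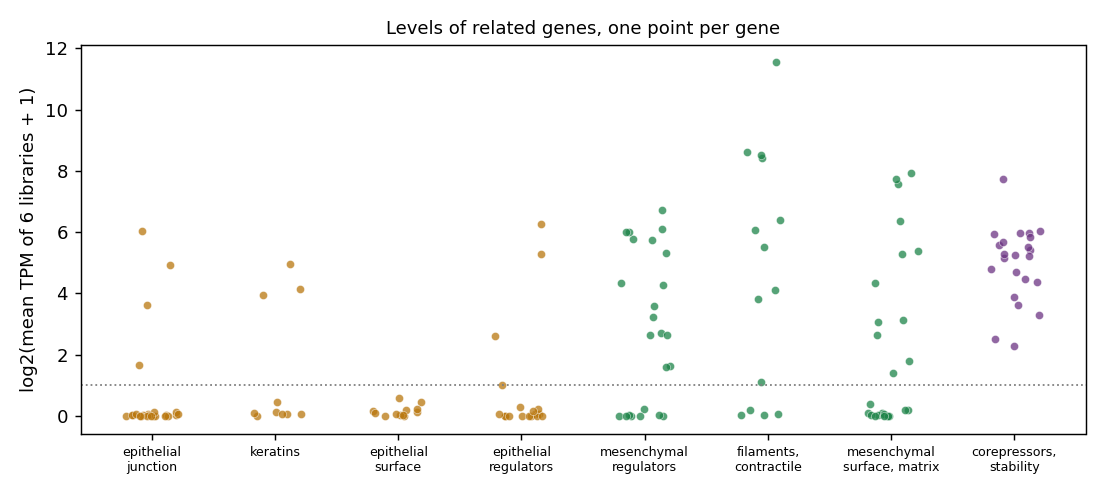
Mean level over the 6 libraries, as log2(mean TPM + 1), of related genes, 1 point per gene, in 4 epithelial lists (orange), 3 mesenchymal lists (green) and a list of corepressors and stability factors (purple), with 1 TPM dotted. Of 64 epithelial genes 10 reached 1 TPM in every library, and of 64 mesenchymal genes 36 did.

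The low level of the 3 epithelial markers was shared by most other epithelial genes measured. In 4 lists of junction proteins, keratins, surface proteins and epithelial regulators, which hold 64 genes, 52 were under 1 TPM in all 6 libraries and 10 (15.6%) were at 1 TPM or more in all. In 3 lists of mesenchymal regulators, filament or contractile proteins, and surface or matrix proteins, also 64 genes, 36 (56.2%) were at 1 TPM or more in all libraries. Of 21967 protein-coding genes, 45.1% were. In the mesenchymal lists 26 genes were under 1 TPM in all libraries, among them Acta2, Tagln and Fap, at 0.45 TPM or less. Esrp1, the splicing factor of epithelial transcripts, and Ovol1, a repressor of Zeb1, were listed at 0 in all libraries, and Grhl2, an activator of epithelial junction genes, was at 0.24 TPM or less.

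Among 10 keratins 3 were expressed, Krt18, Krt20 and Krt80, and 7 were under 1 TPM in all libraries. Krt18, the usual partner of Krt8, had 276.6 and 325.5 normalized counts in the parental line, 355.7 and 314.5 in B04 and 481.4 and 515.2 in B64. At 12.3 to 22.4 TPM, its level was 27.6 to 126 times that of Krt8 in the same library. Krt18 rose in B64 by 0.73 on the log2 scale (SE 0.16, adjusted p = 1.57e-04 by DESeq2). Krt20, a keratin of differentiated intestinal cells, had 288.1 and 320.8 normalized counts in the parental line, 286.4 and 302.3 in B04 and 786.1 and 816.9 in B64. It rose 2.63-fold in B64 (log2 fold change 1.40, SE 0.14, adjusted p = 5.11e-20). Krt80 rose in both clones, by 1.02 in B04 and 0.61 in B64 on the log2 scale. Krt7 had 22.8 and 35.6 normalized counts in B04 against 7.6 and 4.7 in the parental line and 2.3 and 1.1 in B64, and rose in B04 (log2 fold change 2.25, SE 0.86, adjusted p = 0.041). The 4 tested keratins, Krt7, Krt18, Krt20 and Krt80, had a median log2 fold change of 0.59 in B04, 0.67 in B64 and 0.08 between the clones, beside 0.00 over all genes tested.

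Among 24 junction genes, 20 were under 1 TPM in all libraries and 4 were tested. Tjp1, a scaffold of tight junctions, rose by 0.24 on the log2 scale in B04, and Cldn12, a claudin, fell by 0.21 in B04 and by 0.32 in B64. The list had 2 genes higher and 1 lower in B04 (median 0.36) and 2 lower in B64 (median -0.25). Over all genes tested, 11.2% were higher and 12.9% lower in B04, and 8.87% and 7.45% in B64. Of 12 surface or protease genes 4 were tested and 0 passed by DESeq2 in any comparison, with 1, 1 and 0 at an unadjusted p under 0.05 in B04, B64 and between the clones, and 1, 0 and 0 by edgeR. Of 18 epithelial regulators 7 were tested, with 2 higher and 1 lower in B04 and 0 in B64, where 2 were higher at an unadjusted p under 0.05 and edgeR called 1 in each direction. Klf4, a factor of differentiating epithelia, rose by 0.52 in B04, while Klf5, which is linked to proliferating crypt cells, fell by 0.34 there. Trp63, a basal epithelial factor, had 27.4 and 16.3 normalized counts in B04 against 3.8 and 0.9 in the parental line and 1.1 in each B64 library, and passed in B04 (adjusted p = 0.0244).

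A list of 8 cadherins and partners besides Cdh1 and Cdh2 held 4 expressed genes, which were catenins and plakoglobin, and 4 cadherins under 1 TPM in all libraries, Cdh3 (P-cadherin) among them at 0.06 TPM or less. By DESeq2 0 of the 4 tested passed in B04, with 1 at an unadjusted p under 0.05 and 1 by edgeR. In B64 1 passed, where Ctnna1 (alpha-catenin), which ties cadherins to actin, rose by 0.26 (SE 0.05, adjusted p = 1.04e-05). The medians of the 4 were 0.12 and 0.09, and 24.1% and 16.3% of all genes tested passed in the same order.

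Of 24 other mesenchymal regulators 17 were tested. In B04 3 were higher and 6 lower (median log2 fold change 0.03), where 11.2% and 12.9% of all genes tested were. Hmga2, a chromatin protein that raises Snai1 and Twist1 in other systems, fell by 1.61 in B04, from 9358.2 and 8730.6 normalized counts to 2884.8 and 3061.8 (SE 0.06, adjusted p = 1.97e-141), and had 9086.2 and 8838.7 in B64. Sox4, a transforming growth factor beta target, fell by 2.34 in B04 (SE 0.16) and by 0.75 in B64 (SE 0.14). Prrx2, a homeobox factor of mesenchyme, rose by 1.08 in B04 (SE 0.11) and Foxc1 by 0.63. In B64 2 genes were higher and 4 lower (median -0.02), where 8.87% and 7.45% of all genes tested were. Sox9, a factor of crypt and cartilage cells, rose by 0.82 and Prrx1 by 0.25, while Lef1, a partner of beta-catenin, fell by 1.10 in B64 and by 1.36 in B04.

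Filament and contractile proteins, the class of Vim, had 6 genes higher and 2 lower of 10 tested in B04 (median 0.23). In B64 4 were higher and 2 lower (median 0.15). Of all genes tested, 11.2% were higher and 12.9% lower in B04, and 8.87% and 7.45% in B64. Tpm1, a tropomyosin, rose by 0.32 in each clone (SE 0.05). Cnn2, a calponin, rose by 0.35 in B04 and fell by 0.60 in B64, and Nes, the intermediate filament nestin, rose by 0.39 in B04 and fell by 0.29 in B64. S100a4, a calcium-binding protein of motile cells, rose by 0.24 in B04 and 0.44 in B64, and Actn1 and Cald1 fell by 0.27 and 0.18 in B04.

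Of 15 mesenchymal surface and matrix genes tested, 4 were higher and 8 lower in B04 (median -0.70), where 11.2% and 12.9% of all genes tested were. Thbs2, a matrix thrombospondin, had 1855.4 and 1663.8 normalized counts in the parental line, 451.5 and 366.4 in B04 and 4138.7 and 4160.2 in B64. It fell by 2.10 in B04 (SE 0.10, adjusted p = 8.26e-92) and rose by 1.24 in B64 (SE 0.09, adjusted p = 4.34e-40). Mmp14, a membrane matrix protease, fell by 1.09 in B04, while Sparc, a collagen-binding protein, rose by 0.46 and Pdgfrb, a growth factor receptor of mesenchyme, by 0.50. In B64 3 were higher and 6 lower (median -0.20), where 8.87% and 7.45% of all genes tested were. Fn1 (fibronectin) rose by 0.51 there, and Thbs1 and Ccn1 fell by 2.24 and 0.79. Directions within this list were thus mixed in both clones.

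Corepressors and stability factors of the SNAIL, TWIST and ZEB proteins were all expressed, 23 of 23 at 1 TPM or more in every library. In B04 6 were higher and 0 lower by DESeq2 (median 0.10), with 3 lower at an unadjusted p under 0.05 and 1 by edgeR. In B64 3 were higher and 1 lower (median -0.01). Between the clones 6 were lower in B64 and 0 higher (median -0.06), with 4 higher at an unadjusted p under 0.05 and 2 by edgeR. Over all genes tested, 11.2% were higher and 12.9% lower in B04, and 8.87% and 7.45% in B64. Between the clones 13.1% were higher and 11.1% lower in B64. The Id proteins bind basic helix-loop-helix factors and keep them from DNA. Id3 had 90.6 and 97.3 normalized counts in the parental line, 220.7 and 261.6 in B04 and 148.4 and 153.5 in B64, and rose by 1.36 in B04 (SE 0.24, adjusted p = 2.92e-07) and by 0.68 in B64 (adjusted p = 0.0364). Id1 rose by 0.83 and 0.55 and Id2 by 1.18 and 1.12 in the same order. Ajuba, a LIM protein that joins SNAIL to its corepressors, rose by 0.43 in B04 and fell by 0.45 in B64.

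With fragment class as a block, calls were fewer in both clones, also over all genes tested (12.8% in B04 and 2.64% in B64, as given above), and B64 shares no class with the parental line. The counts higher and lower in B64 were 2 and 0 for keratins, 1 and 0 for other mesenchymal regulators, 2 and 1 for filament and contractile genes, and 2 and 3 for surface and matrix genes, and 0 for junction genes, cadherins and partners, epithelial regulators and corepressors. At an unadjusted p under 0.05 the last 4 lists had 2, 1, 0 and 1 genes. In B04 the same fit gave 1 and 0 for keratins, 2 and 0 for junction genes, 1 and 1 for epithelial regulators, 2 and 5 for other mesenchymal regulators, 5 and 1 for filament and contractile genes, 3 and 6 for surface and matrix genes and 4 and 0 for corepressors. Of the genes described above, Krt7, Trp63, Cldn12, S100a4, Cald1 and Id2 no longer passed in B04, with adjusted p-values of 0.11 to 0.397. In B64 Krt18, Cldn12, Ctnna1, Prrx1, Sox4, Lef1, Nes, S100a4, Ajuba, Id1, Id2 and Id3 no longer passed. Between the clones, Ctbp1, Ezh2, Sin3a and Id3 of the corepressor list no longer passed, with log2 values of -0.79 to -0.19. In this fit B04 against the parental line rests on B04 A alone, and B64 against B04 rests on B04 B alone. The part of fragment length in these counts was not tested.

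The genes whose pattern over the 6 libraries was most like that of a called member were found by Pearson's r of log2 normalized counts among 9877 genes, as a description over 6 libraries that share their lines and depth. Those nearest to Vim were Adgrl1 (r = 0.997), Haus4 (0.997) and Pdgfrb (0.996), and 315 genes had an r of at least 0.95. Those nearest to Zeb2 were Serinc3 (0.999), Ssr3 (0.997) and Eif4e (0.997), with 330 genes at 0.95 or more. For Cdh2 they were Prpf38b (0.992), Tank (0.991) and Dhx15 (0.991), with 76 such genes. The many genes at high r show how little 6 libraries separate.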

How the data were processed

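RNA-seq libraries of oligo(dT)-selected mRNA were analysed, 2 for each of 3 lines. According to the study's methods and the submitters' processing notes, the authors used STAR for alignment of paired reads on mm10, then RSEM for gene levels, and the annotation release is not given in the sources used here. The deposited expected counts are RSEM estimates per gene, in which reads that match several genes are divided among them. The deposited TPM values were scaled by the authors' RSEM run to effective length and library total. FPKM values were not used. Of 53801 identifiers, 53706 (99.8%) matched GENCODE M21 on GRCm38, the assembly of mm10, which gave symbols and 1-based coordinates.

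Groups and replicate letters came from the sample titles. The main test was the Wald test of DESeq2 (version 1.42.0, under R 4.3.3) on rounded expected counts, since the study's methods use that tool. It was 1 fit over all 6 libraries with line as its sole factor, with independent filtering and without shrinkage. A gene passed, or was called, at an adjusted p under 0.05 after Benjamini-Hochberg adjustment over all genes tested. Intervals are 95% Wald intervals. Cdh1 and Epcam had too few counts to be tested. A gene with at most 3 counts in each library was treated as being at the floor. Adjusted p-values are from DESeq2 unless edgeR (version 4.0.16) or limma (version 3.58.1) is named. TPM alternatives used pseudocounts of 1 and 0.1 on the log2 scale, so their fold changes understate those of low genes. Fragment-length class was RSEM length minus effective length, split at 260 bases. The tests were checked on simulated counts.

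All 10 members are named. Of each list, the 2 called genes with the smallest adjusted p in each direction are named per comparison, as far as space allowed, with others where a level describes the list. The values of 1 list gene are not reported here. The 3 most alike genes are given for the 3 members with the smallest adjusted p. The members and the gene lists were chosen with earlier results of these data known. Alternatives covered the test, normalization, count filters, the libraries in the fit, replicate and fragment-length blocks, effective lengths as an offset, TPM with limma, a threshold of 0.01 and leaving out single libraries.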

Additional observations from a re-analysis of the deposited data

Results flagged for a closer look

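The effects of the clones against the parental line differed for 2 of the 8 genes tested, where 24.3% of all genes tested differed. This was by a test of the difference itself, which is the direct comparison of B64 with B04. For Vim this difference was -0.64 on the log2 scale (SE 0.06, adjusted p = 1.94e-29 by DESeq2), with both B64 libraries below both B04 libraries. For Zeb2 it was 0.54 (SE 0.09, adjusted p = 1.38e-08 by DESeq2), with both B64 libraries above both B04 libraries. Within the short-fragment libraries alone, where B04 B stood for B04, the values were -0.59 and 0.60. Groups of 2 libraries were too small for a test of outlying samples.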

How the results depend on the processing

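Under 421 alternative values, 358 kept direction and side of the threshold, 17 lost the call, 5 gained it and 41 turned the sign of a value that had not passed. Vim and Zeb2 kept their calls in B04 and between the clones in every DESeq2 and edgeR alternative, and leaving out 1 library left 2 to 3 members called in B04, 0 to 1 in B64 and 2 between the clones. With limma on TPM at a pseudocount of 1, Vim alone passed in B04, with or without a filter at 1 TPM. At a pseudocount of 0.1, Vim and Epcam passed there, though Epcam has at most 2 counts per library. In B64 0 passed with limma (1 to 3 at an unadjusted p under 0.05). Between the clones Vim alone passed at a pseudocount of 1, and Vim and Zeb2 passed with the filter. At a pseudocount of 0.1 Epcam alone passed between the clones, and Vim (-0.57, adjusted p = 0.0671) did not pass. B64 also had 0 members with the fragment-length block (1 at an unadjusted p under 0.05), and edgeR called 4 between the clones. The cause of these changes was not tested.

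Sign changes were small for all genes but Krt8, and none passed the test. With the fragment-length block the values were -0.05 and -0.71 for Krt8 in B04 and B64, 0.05, 0.04 and 0.04 for Vim, Zeb2 and Twist1 in B64, and -0.04 for Cdh2 between the clones. With effective lengths as an offset they were -0.02 for Twist1 in B04, 0.19 for Vim and 0.09 for Zeb2 in B64, and -0.0035 for Snai1 between the clones. With limma they were 0.23 for Vim and 0.13 for Zeb2 in B64, and 0.11 and 0.0028 for Krt8, -0.03 for Cdh2 and -0.04 for Snai1 between the clones. With TMM factors they were -0.0047 for Zeb1 in B64, and -0.0038 for Cdh2 and -0.0025 for Snai1 between the clones. With the compared lines alone Twist1 was -0.00073 in B04, and edgeR gave 0.01 for Krt8 between the clones. Leaving out a library gave ranges in B04 of -0.05 to 1.78 for Krt8 and -0.12 to 0.13 for Twist1, in B64 of -0.12 to 0.14 for Zeb1 and -0.20 to 0.05 for Twist1, and between the clones of -0.04 to 0.05 for Cdh2, -0.13 to 0.13 for Snai1 and -0.17 to 0.0035 for Twist1.

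Over all genes, edgeR called 4281, 3038 and 4201, against 3181, 2157 and 3118 by DESeq2. With limma on log2(TPM + 1) the counts were 1536, 873 and 1637, with the TPM filter 1772, 1008 and 1832, and at a pseudocount of 0.1 516, 308 and 519. With the fragment-length block they were 1596, 340 and 1625. Leaving out 1 library gave 1755 to 2577, 988 to 1772 and 1696 to 2758.

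Same-letter libraries deviated from their line means with correlations of 0.11 (parental line, B04), 0.01 (parental line, B64) and -0.05 (both clones). The labels give the letters no meaning, and B04 A and B04 B also differ in fragment class. Whether a letter marks a shared batch cannot be told from these values. With the replicate block 3, 1 and 2 members passed, the same as without it, among 2655, 1716 and 2638 genes called. Depth limited Cdh1, Epcam and Krt8, where at most 16 counts were seen in a library.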

Other observations

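Chromosomal neighbours of the members were read as a measure of regional change, over up to 40 expressed genes around each gene. In B04 the median log2 fold change of the 40 neighbours of Vim was 0.10 and that of the 40 neighbours of Zeb2 was -0.11, while the genes themselves had 0.58 and -0.61. The 40 neighbours of Cdh2 had a median of 0.11 in B04 and 0.10 in B64, opposite in sign to its own -0.35 and -0.34. The 28 neighbours of Zeb1 had a median of -0.11 in B04, where Zeb1 had 0.34. The 40 neighbours of Krt8, a region that also holds other keratin genes, showed a median of 0.22 in B04, where 34 of 40 were above 0, and 0.09 in B64. These medians are descriptions and were not tested.

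Col3a1, a fibrillar collagen chain in the fibroblast list, was the gene of the marker lists with the smallest adjusted p in B64 (log2 fold change -4.49, SE 0.22, adjusted p = 4.67e-88 by DESeq2), while Col1a2 was 0.24 lower in B04 on the log2 scale, with 316 to 359 TPM over the libraries. Decorin (Dcn) had 23.8 and 23.4 normalized counts in the parental line, 0.9 and 0 in B04 and 4.5 and 3.2 in B64. The number of Twist1 TPM per Snai1 TPM was 7.45 to 9.32 over the 6 libraries.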
